A study of Mus musculus with 14 samples.

Results

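The expressed programmes of skin regulatory T (Treg) cells and hair follicle stem cells (HFSC) were set side by side in wild-type mice. The 3 GR WT Treg libraries and the 3 GR WT HFSC libraries, 6 of 14 samples in all, were joined by transcript, and a gene counted as expressed at a mean of at least 5 TPM (an abundance scaled by transcript length and library size) in 1 cell type. GR stands for the glucocorticoid receptor, and the GR WT mice are labelled only as wild type. Their Treg cells were sorted 1 day, and their CD34-positive, ITGA6-high HFSC 4 days, after the hair was depilated. The remaining 8 samples are Treg cells (5) and HFSC (3) of Foxp3YFP-Cre GRfl/fl mice (GR KO), collected at the same times. In those mice Cre is driven by Foxp3, so the receptor is targeted in Foxp3-expressing cells and not in the follicle cells. Cell type, day and deposited table change together here, so they cannot be told apart, and the contrast is given as a description with no test.

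Treg cells are the CD4 T cells that restrain other immune cells, and they are held in that state by the transcription factor Foxp3. In skin many of them sit close to hair follicles. HFSC are epithelial cells of the follicle bulge that stay quiet between hair cycles and divide when a new hair is made, for example after the old shaft is pulled out. Cells in such a niche exchange secreted ligands, membrane-bound ligands and adhesion proteins, each of which acts only on a cell that carries its receptor.

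Both labels fitted the 4 markers. Foxp3 (chrX:7579676-7595243, mm10) was at 159.8, 281 and 241 TPM in the 3 Treg libraries and at 0, 0 and 0.121 TPM in the 3 HFSC libraries. Cd3e (chr9:44998743-45009590), a chain of the T cell receptor complex, was at 134, 177 and 183 TPM in Treg and at 0, 1.07 and 0 TPM in HFSC. The 2 T cell genes were thus high in every Treg library and at or near 0 in every HFSC library. Krt15 (chr11:100131759-100135949), a keratin of bulge and basal cells, was at 7252, 4984 and 4439.9 TPM in HFSC and still at 122, 126 and 243 TPM in Treg. Sox9 (chr11:112782210-112787757), a transcription factor of bulge cells, was at 212, 206 and 206 TPM in HFSC and at 0.200, 0.338 and 2.14 TPM in Treg. No marker overlapped between the cell types. Of the 2 proteins used to sort HFSC, Cd34 had a mean of 126 ± 20.7 TPM in HFSC (SD, n = 3) and 13.2 ± 2.53 TPM in Treg, and Itga6 had 105 ± 19.6 and 16.0 ± 2.42 TPM. Nr3c1, which encodes GR, was higher in Treg, at 171, 233 and 229.7 TPM against 41.1, 48.9 and 34.8 TPM in HFSC. In the 5 Treg GR KO libraries it lay between 106 and 171 TPM, so the highest GR KO library overlapped the lowest GR WT library.

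In units of 1000000 tags, recovered as whole numbers from TPM and length, the Treg libraries held 9.17 to 14.24 and the HFSC libraries 4.5 to 7.18. For a 2000-base transcript, 3 tags were worth 0.144 to 0.207 TPM in Treg and 0.340 to 0.515 TPM in HFSC, a floor that covers counting error only. The labels do not say that replicates are separate mice, so SDs measure the spread between these samples. Transcripts known as markers of other cells were detected in the Treg libraries, and their source was not tested. Each marker list was summed within its own table, over every gene with a row there. A gene is given as at 0 only where every library of the group was at 0. The sum of 12 basal keratinocyte genes was 190.1 to 294 TPM in Treg GR WT, 25.5 to 80.01 TPM in Treg GR KO and 15936 to 17931 TPM in HFSC GR WT. The macrophage and monocyte list (13 genes, none at 0 in GR WT) summed to 216 to 390.3 TPM in Treg GR WT and 66.0 to 181 TPM in Treg GR KO. The fibroblast list (10 genes, none at 0) summed to 139.7 to 319.7 and 40.1 to 152 TPM. The neutrophil list (10 genes, none at 0 in GR WT and 2 at 0 in GR KO) summed to 352, 99.4 and 258 TPM in the 3 GR WT libraries and to 26.3 to 50.9 TPM in GR KO. S100a9, a subunit of the neutrophil protein calprotectin, was at 185, 50.6 and 159 TPM in GR WT and between 0 and 15.3 TPM in GR KO. The dendritic list (11 genes, 1 at 0 in GR WT) summed to 477 to 989.8 and 399.9 to 619.7 TPM, of which its 4 MHC class II genes made up 472 to 976 and 391 to 609 TPM. B cell genes (6) summed to 9.55 to 17.3 TPM in Treg GR WT and 6.74 to 15.4 TPM in GR KO, mostly from Cd79b at 15.3, 9.06 and 7.55 TPM in GR WT. In HFSC GR WT, all 12 sebocyte genes were expressed, at a sum of 5855 to 7839 TPM, while macrophage genes summed to 30.4 to 39.8 TPM and neutrophil genes to 3.22 to 14.7 TPM. In bulk samples a lower level can come from fewer cells or from less RNA per cell, which cannot be told apart.

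**Figure D1:**
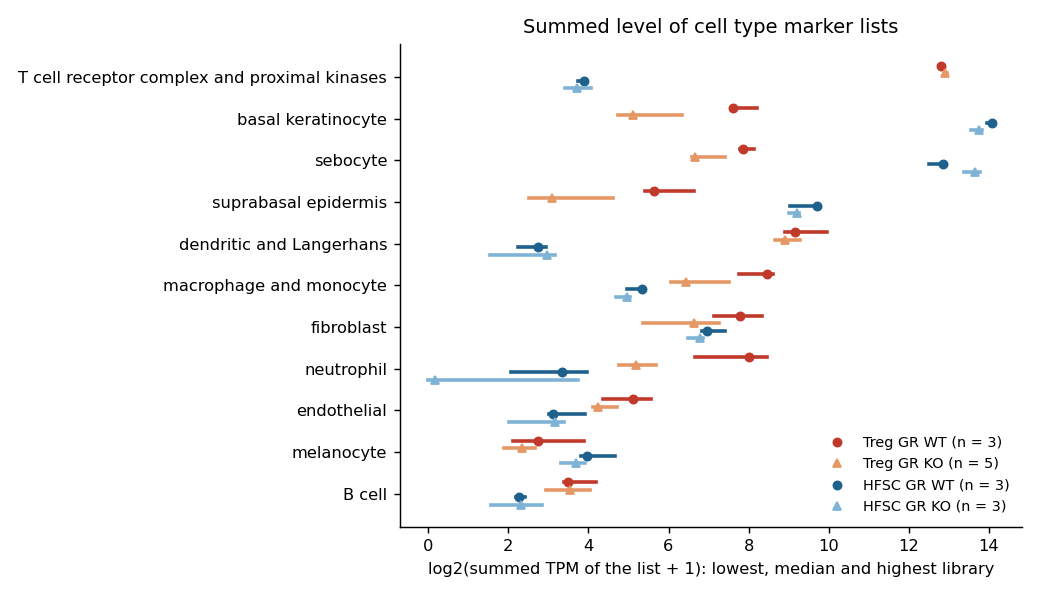
Summed TPM of marker lists, each over all its genes in its own table, on a log2(sum + 1) scale, with the lowest and highest library as line ends and the median as the point, for Treg GR WT (n = 3), Treg GR KO (n = 5), HFSC GR WT (n = 3) and HFSC GR KO (n = 3). T cell receptor genes separated the cell types. The keratinocyte, macrophage and neutrophil sums were higher in Treg GR WT than in Treg GR KO.

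Of 23264 joined transcripts, 10798 were expressed, 8307 in Treg, 9712 in HFSC and 7221 in both. A gene was placed on one side where it was expressed there, at least 10-fold above the other cell type, with no overlap between the 3 and 3 libraries. By that rule 805 genes were Treg-side (7.46% of the expressed genes) and 1383 were HFSC-side (12.8%). Another 4263 genes (39.5%) were shared, expressed in both at means within 2-fold, and 4347 lay in between. Treg-side genes made up 25.5% of Treg TPM, HFSC-side genes 24.1% of HFSC TPM, and shared genes 43.6% and 43.9%. The 2 genes just above the limit were Cabyr at 5.004 TPM and Ftx at 5.002 TPM, and the 2 just under it were Zfp28 at 4.999 TPM and Ly6k at 4.994 TPM. The median gene was 0.61 lower in Treg than in HFSC on the log2 scale. With that shift taken out, 973 genes were Treg-side and 1033 HFSC-side, so the Treg share of all one-sided genes went from 36.8% to 48.5%. Many one-sided genes had no tag at all on the other side: 269 Treg-side genes had none in any HFSC GR WT library, and 57 HFSC-side genes had none in any Treg GR WT library. The HFSC libraries held fewer tags than the Treg libraries, and the part of depth in these counts was not tested. In the GR KO libraries, which the rule did not use, 673 of the 805 Treg-side genes (83.6%), 1223 of the 1383 HFSC-side genes (88.4%) and 3675 of the 4263 shared genes (86.2%) fell in the same class.

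**Figure D2:**
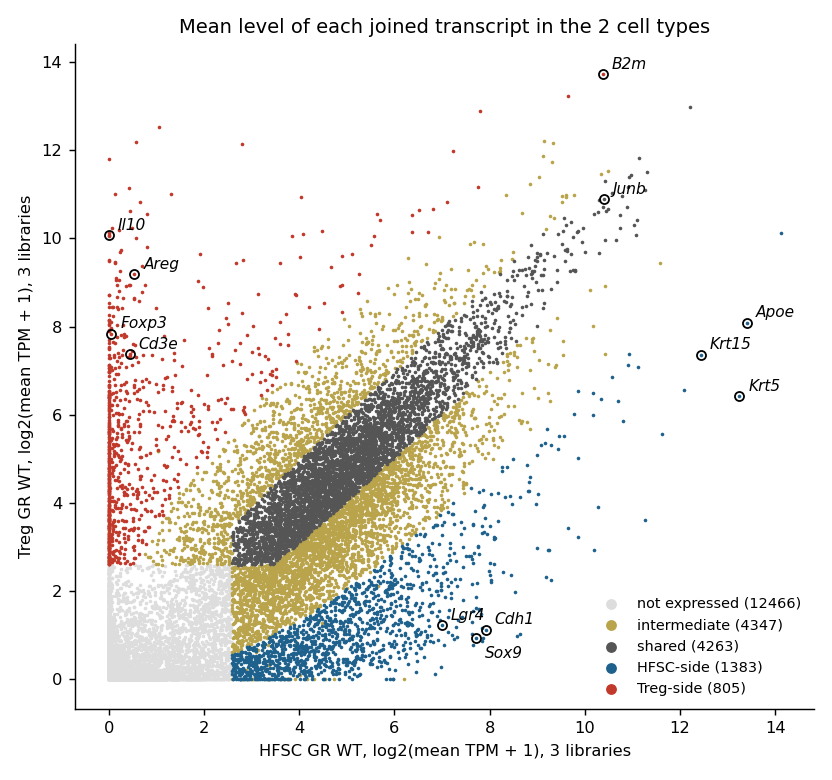
Mean of 3 libraries per transcript in HFSC GR WT (x axis) and Treg GR WT (y axis), as log2(mean TPM + 1), coloured by class. Foxp3, Cd3e, Areg and Il10 stand at the left edge, near 0 in HFSC, while Apoe, Krt5 and Krt15 are far right but well above 0 in Treg.

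The most abundant Treg-side transcript was B2m, the light chain of MHC class I, at 15919, 12480.4 and 12447 TPM in Treg and 1489, 1320.5 and 1176 TPM in HFSC, only 10.2-fold apart. Ctla4, an inhibitory receptor that competes for costimulatory ligands, was at 6383, 5987 and 5397 TPM in Treg and at 0.356, 2.37 and 0.470 TPM in HFSC. Srgn, the core protein of granule proteoglycans, was at 5258, 4374 and 4409 TPM in Treg and at 1.47, 0 and 0 TPM in HFSC. Ctla4 and Srgn were thus among the highest of all Treg transcripts and near the floor in HFSC. Vim, the intermediate filament of non-epithelial cells, was at 4542 ± 277 TPM in Treg (SD, n = 3) and 5.95 ± 1.58 TPM in HFSC. Tmsb4x, an actin-binding peptide, was at 9700.2 ± 1670.4 and 797 ± 83.9 TPM. All 15 genes of the T cell receptor complex and its proximal kinases were Treg-side. So were 14 of 16 Treg identity genes and 12 of 18 genes of tissue Treg effector function. A list of conventional and lymphoid T cell genes had 10 of 14 on the Treg side, at a lower median of 11.9 TPM against 356 TPM for Treg identity.

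On the HFSC side the most abundant row was Rn45s, the ribosomal RNA precursor, with means of 17787 TPM in HFSC and 1112 TPM in Treg, and its part in the scaling between tables was not tested. The most abundant mRNA there was Apoe, a lipid carrier, at 14059, 10497 and 7910.2 TPM in HFSC and 270.4, 155 and 387 TPM in Treg. Krt5, a basal keratin, was at 10560.2, 9682 and 8968 TPM in HFSC and 75.6, 67.9 and 109 TPM in Treg. Its partner Krt14 was at 4548, 4524 and 3920.0 and 84.4, 67.1 and 127 TPM. Treg GR WT replicate 3 was the highest Treg library for each of these 3 genes, and in the 5 Treg GR KO libraries Krt5 lay between 1.78 and 27.7 TPM. Col17a1, a hemidesmosomal collagen that anchors bulge cells, was at 1154, 1225 and 1141 TPM in HFSC and 4.90, 4.96 and 9.95 TPM in Treg. All 9 basal keratinocyte genes with a row, 13 of 18 bulge stem cell genes and 7 of 10 desmosome genes were HFSC-side, and none of them was Treg-side. All 12 sebocyte genes were HFSC-side too, led by the desaturase Scd1 at 1769, 2852 and 2731 TPM. Whether these transcripts came from the stem cells or from sebocytes was not tested. Across HFSC-side genes, the median Treg level was 2.01% to 4.51% of the HFSC mean in the GR WT libraries and 1.15% to 1.53% in the GR KO libraries. Of the HFSC-side genes, 142 still reached 5 TPM in Treg. The part of keratinocyte RNA in those levels was not tested.

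Genes of G2 and M phase differed more between the cell types than genes of energy use. Of 20 G2 and M phase genes, 16 were HFSC-side and none Treg-side, and the list summed to 1143 to 1551 TPM in HFSC and 95.7 to 120 TPM in Treg. Ube2c, which tags mitotic regulators for destruction, was at 91.5, 112 and 148 TPM in HFSC and 1.94, 0.552 and 8.75 TPM in Treg. Of 19 S phase genes, 3 were HFSC-side and 13 lay in between, at a median of 75.9 TPM in HFSC and 11.7 TPM in Treg. Of all expressed genes 12.8% were HFSC-side, so that count was near the share of all genes. Glycolysis was held in common, with 10 of 14 genes shared and medians of 59.0 TPM in Treg and 81.1 TPM in HFSC. Of 19 genes of cholesterol synthesis, 3 were HFSC-side, again near that share, and 15 in between. Their medians were 22.6 TPM in Treg and 116 TPM in HFSC. Among 17 glucocorticoid receptor and target genes, 8 were shared and 2 Treg-side, beside 39.5% and 7.46% of all expressed genes. Their medians were 130 TPM in Treg and 94.5 TPM in HFSC.

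To show what sequence lies in front of these genes, promoters were taken from RefSeq (GRCm38.p6, the mm10 build). A total of 14238 joined genes matched a promoter at the same start site, 462 of them Treg-side and 800 HFSC-side, and the 250 bases before the start were searched on both strands for 19 short motifs. Treg-side windows were poorer in CpG, with a median observed-to-expected ratio of 0.328 against 0.635 on the HFSC side and 0.802 in shared genes. Their median GC content was 52.8% against 60.4% and 60.8%. The ETS-type motif ACAGGAAG was in 8.44% of Treg-side windows, 1.5% of HFSC-side windows and 2.66% of all windows. A second ETS form with a CpG, CCGGAAG, was in 6.71%, 6.25% and 8.89%, and in 19.5% of shared windows, so the Treg-side excess was not common to both ETS forms. A longer interferon-response motif was in 9.96%, 2.0% and 3.04%, the RUNX motif TGTGGT in 19.1%, 7.13% and 12.3%, and an NF-kB motif in 4.11%, 1.5% and 1.38%. The KLF-type motif GGGTGTG had the higher share on the HFSC side, in 8.23% of Treg-side, 10.3% of HFSC-side and 7.24% of all windows. The Treg-side share was thus above that of all windows too. The SP motif GGGCGG was in 39.6%, 61.3% and 42.2%, and in 64.1% of shared windows. Its HFSC-side share was thus not above that of shared genes. The LIM homeobox motif TAATTA was in 3.25% of Treg-side, 2.88% of HFSC-side and 4.76% of all windows. Motif shares move with base composition, and its part in these differences was not tested. A match is a run of letters and not a shown binding site.

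The 3 Treg-side surface, secreted or transcription factor genes of highest mean whose window holds ACAGGAAG were Il7r (chr15:9529877-9530126, minus strand), Ccr8 (chr9:120091883-120092132, plus strand) and Ltb (chr17:35194257-35194506, plus strand). They encode the interleukin-7 receptor chain, a chemokine receptor of skin Treg cells and a chain of lymphotoxin. Each line gives the 250 bases before the start, 5′ to 3′ on the gene's strand, with the motif or its reverse complement in capitals. The capitals begin 48, 209 and 120 bases upstream, in that order.
Il7r: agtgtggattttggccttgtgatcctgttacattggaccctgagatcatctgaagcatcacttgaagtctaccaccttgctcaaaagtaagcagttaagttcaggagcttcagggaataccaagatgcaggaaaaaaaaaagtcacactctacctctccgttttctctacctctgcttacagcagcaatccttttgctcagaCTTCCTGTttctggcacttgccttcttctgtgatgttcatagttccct
Ccr8: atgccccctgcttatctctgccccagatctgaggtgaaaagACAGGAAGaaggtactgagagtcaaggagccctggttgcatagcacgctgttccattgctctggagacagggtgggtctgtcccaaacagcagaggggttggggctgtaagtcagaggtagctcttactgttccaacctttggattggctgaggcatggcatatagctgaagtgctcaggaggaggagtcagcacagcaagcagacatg
Ltb: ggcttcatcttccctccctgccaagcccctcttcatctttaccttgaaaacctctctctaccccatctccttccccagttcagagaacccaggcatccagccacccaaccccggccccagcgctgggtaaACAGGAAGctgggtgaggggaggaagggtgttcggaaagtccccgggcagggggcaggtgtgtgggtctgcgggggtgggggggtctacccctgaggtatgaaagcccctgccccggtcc
The corresponding 3 HFSC-side genes with GGGTGTG were Atf3 (chr1:191183334-191183583, minus strand), a stress-induced transcription factor, Cxcl14 (chr13:56296552-56296801, minus strand), a chemokine of epithelia, and Fgfbp1 (chr5:43981800-43982049, minus strand), a carrier of fibroblast growth factors. Their capitals begin 172, 103 and 58 bases upstream.
Atf3: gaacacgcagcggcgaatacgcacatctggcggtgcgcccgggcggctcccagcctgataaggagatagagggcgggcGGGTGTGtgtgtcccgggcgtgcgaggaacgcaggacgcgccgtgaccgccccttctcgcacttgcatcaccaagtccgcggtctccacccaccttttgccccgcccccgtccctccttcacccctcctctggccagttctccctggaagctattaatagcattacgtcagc
Cxcl14: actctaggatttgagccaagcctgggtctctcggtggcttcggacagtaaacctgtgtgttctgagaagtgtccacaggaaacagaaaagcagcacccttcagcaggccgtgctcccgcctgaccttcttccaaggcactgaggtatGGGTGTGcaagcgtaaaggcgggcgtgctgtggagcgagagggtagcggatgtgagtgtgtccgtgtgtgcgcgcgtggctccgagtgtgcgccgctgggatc
Fgfbp1: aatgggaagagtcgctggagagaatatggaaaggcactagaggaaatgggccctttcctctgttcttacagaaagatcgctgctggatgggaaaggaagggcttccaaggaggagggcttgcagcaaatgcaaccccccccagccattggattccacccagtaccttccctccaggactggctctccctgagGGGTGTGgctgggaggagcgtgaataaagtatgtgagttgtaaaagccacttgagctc

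The gene groups differed in how far they were divided between the cell types. Gene families were grouped by symbol into transcription factors (565 rows, 315 expressed), surface proteins (570 rows, 342 expressed) and secreted proteins (635 rows, 241 expressed). Of the expressed transcription factors, 31 were Treg-side, 81 HFSC-side and 89 shared (28.3%). Of the surface genes, 132 were Treg-side, 93 HFSC-side and only 27 shared (7.89%). Of the secreted genes, 63 were Treg-side, 92 HFSC-side and 18 shared (7.47%). Beside them, 39.5% of all expressed genes were shared.

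**Figure D3:**
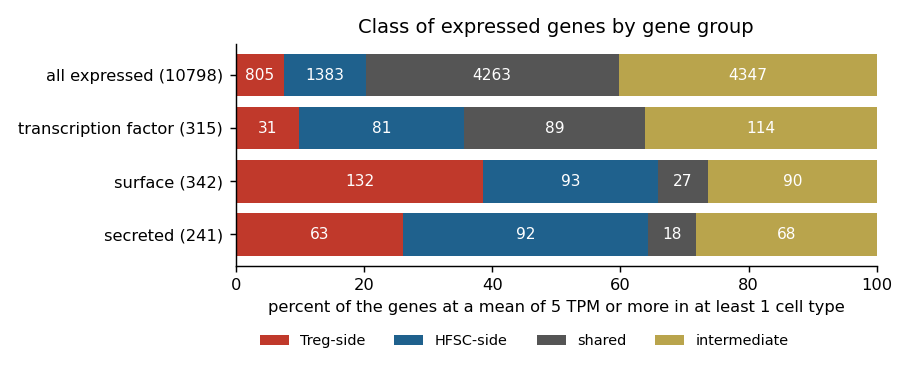
Share of expressed genes in each class, in percent, for all genes and for the 3 gene groups, with the number of genes printed in each bar. Shared genes took 39.5% of all expressed genes and under 8% of surface and secreted genes.

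Homeobox genes, which set positional and tissue identity, held the most HFSC-side genes of any transcription factor family here: 30 of 44 expressed were HFSC-side, 4 Treg-side and 1 shared. Barx2 was at 435, 391.9 and 365 TPM in HFSC and 0.463, 0.285 and 2.26 TPM in Treg. Lhx2, which maintains the bulge, was at 388, 368 and 390.2 TPM in HFSC and 0.241, 0.557 and 2.10 TPM in Treg. For both genes replicate 3 was the highest Treg library. Trp63, the master factor of stratified epithelium, had a mean of 369 ± 35.3 TPM in HFSC and 2.91 ± 1.37 TPM in Treg, and Vdr, the vitamin D receptor, had 311 ± 29.2 and 4.38 ± 0.557 TPM. The 4 homeobox genes on the Treg side were Zeb1, Meis3, Prrx1 and Prrx2, and the last 2 are known as fibroblast factors.

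Treg-side transcription factors were led by Id2, an inhibitor of E proteins, at 1817, 1786 and 1302 TPM in Treg and 94.9, 124 and 113 TPM in HFSC. Crem, a cAMP-responsive factor, was at 883, 808 and 705 and 3.46, 2.30 and 2.51 TPM. Batf, which shapes tissue Treg cells, was at 597, 520.1 and 490.2 TPM in Treg and at 0, 0 and 0.504 TPM in HFSC. Of these 3, Id2 was the one with a clear HFSC level. The Ikaros family held Ikzf3 at a mean of 249 ± 34.9 TPM and Ikzf2 at 197 ± 26.3 TPM, against 0.0413 ± 0.0716 and 5.77 ± 1.95 TPM in HFSC. ETS factors (2 of 14 expressed), IRF and STAT factors (3 of 15) and NF-kB and NFAT factors (2 of 8) had more Treg-side than HFSC-side genes, which were 1, 0 and 0. The Treg-side shares were 14.3%, 20% and 25%, beside 9.84% of expressed transcription factors and 7.46% of all expressed genes. The counts are few, and no test was run on them.

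Several of the most abundant shared transcription factors were immediate early genes, which many cells switch on rapidly. Junb was at 1786, 1802 and 2103 TPM in Treg and 1346, 1372 and 1316 TPM in HFSC. Nr4a1, an orphan nuclear receptor induced by antigen receptor and stress signals, was at 773, 962 and 1254 and 1410.4, 1356 and 1354 TPM. Gata3 was nearly equal, at 114, 144 and 137 and 105, 95.6 and 112 TPM, and is used by both T cells and follicle cells. Not all genes of this type were shared, since Egr1 was at 2007, 1878 and 1958 TPM in HFSC and 112, 97.5 and 288 TPM in Treg, and Jun at 1831, 1599 and 1571 and 53.5, 46.4 and 135 TPM. Treg GR WT replicate 3 had the highest Treg value of both.

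Surface genes on the Treg side included most chemokine receptors and antigen receptor genes. In the chemokine receptor family, grouped by symbol, 19 of 24 expressed genes were Treg-side and 1 HFSC-side. The latter was S1pr5, a sphingosine-1-phosphate receptor and not a chemokine receptor. Among T cell receptor and costimulatory genes the counts were 21 of 23 and 0, and among MHC genes 14 of 27 and 1. Several MHC genes of the H2-Q series are near-identical copies, so how reads were divided among them is uncertain. Icos, a costimulatory receptor, was at 1828, 1818 and 1815 TPM in Treg and 1.27, 0.313 and 0.139 TPM in HFSC. Tnfrsf4, which encodes OX40, was at 2102, 2012 and 1759 TPM in Treg and 18.9, 17.3 and 10.5 TPM in HFSC. The spread of Icos between Treg libraries was the smallest of these, with an SD of 7.01 TPM. Ccr2 and Ccr8, chemokine receptors, had means of 691 ± 39.2 and 494 ± 18.6 TPM in Treg and of 0.0947 ± 0.164 and 0.131 ± 0.227 TPM in HFSC. MHC class II was also present, with H2-Aa at 149.8, 72.0 and 254 TPM in Treg. This gene is a defining product of antigen-presenting cells. The 7 dendritic markers other than MHC class II genes summed to 4.72, 4.73 and 14.2 TPM in the same libraries, and to 6.96 to 11.2 TPM in Treg GR KO. The macrophage and monocyte list summed to 353, 216 and 390.3 TPM in those GR WT libraries and to 66.0 to 181 TPM in Treg GR KO. The source of the MHC class II transcripts was not tested.

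Surface genes on the HFSC side were receptors of growth and pattern signals and adhesion proteins. Of 29 expressed receptor tyrosine kinases and ephrins, 23 were HFSC-side and 0 Treg-side. Among 26 genes of the Wnt, Hedgehog and Notch receptor family, which also holds the Notch ligand Jag2, the counts were 17 and 0. Of 25 cadherins, desmosomal proteins and claudins they were 16 and 1. Efnb2, an ephrin that signals at cell contacts, was at 186, 211 and 202 TPM in HFSC and 1.53, 1.48 and 2.68 TPM in Treg. Fzd7, a Wnt receptor, had a mean of 156 ± 15.3 TPM in HFSC and 1.27 ± 1.05 TPM in Treg. Lgr5, an R-spondin receptor of cycling follicle cells, had 78.8 ± 16.7 and 0.607 ± 0.317 TPM. Interleukin receptors were spread over both, with 15 of 35 Treg-side and 7 HFSC-side. The Treg set was led by Il2rg at a mean of 1200.3 ± 81.0 TPM and Ifngr1 at 766 ± 73.0 TPM, and the HFSC set by Il20rb, Il31ra and Il17re.

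Secreted genes divided by kind. Of 11 expressed TNF family ligands 8 were Treg-side and 1 HFSC-side, of 20 chemokines 11 and 2, and of 17 interleukins and interferons 9 and 3. Collagens went to HFSC with 12 of 21 against 2, TGF-beta and BMP ligands with their antagonists with 13 of 17 against 0, and other growth factors with 19 of 30 against 1. Il10, an anti-inflammatory cytokine, was at 1220.2, 1026 and 994 TPM in Treg and at 0 in every HFSC library, at least 1703-fold higher in Treg when each HFSC library is set to 3 tags. Gzmb, a granule protease, was at 1709, 1305 and 1504 TPM in Treg and 0.913, 1.01 and 0.301 TPM in HFSC. Both genes were high in each Treg library and at or near 0 in each HFSC library. Sfrp1, a secreted Wnt inhibitor of the bulge, was at 570.4, 591 and 588 TPM in HFSC and 3.97, 3.50 and 4.32 TPM in Treg. Cxcl14 had a mean of 807 ± 127 TPM in HFSC and 9.66 ± 1.49 TPM in Treg. Some Treg-side secreted genes are known mainly as products of other cells. Lyz2, of macrophages and neutrophils, was at 215, 127 and 199.9 TPM in Treg GR WT and between 31.5 and 108 TPM in Treg GR KO, and Dcn, of fibroblasts, was at 101, 74.9 and 97.3 TPM and between 9.23 and 75.7 TPM. Their part in the Treg-side counts was not tested.

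Ligands and receptors were then paired. A list of 206 ligand-receptor pairs held 172 whose chains all had a joined row. It was drawn from textbook biology, with earlier results of these data known. With every chain at a mean of at least 5 TPM on its side, 25 pairs ran from a Treg ligand to an HFSC receptor and 39 from an HFSC ligand to a Treg receptor, and 6 pairs were counted in both directions. A pair was called strictly split where, besides, a ligand chain was at least 10-fold higher on the ligand's side and a receptor chain at least 10-fold higher on the receptor's side. There were 6 strictly split pairs from Treg to HFSC and 5 from HFSC to Treg. Expression of both genes shows that a pair is possible, not that it acts, and protein was not measured.

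From Treg to HFSC, Areg, a growth factor that also marks tissue repair by Treg cells, was at 619, 616 and 509 TPM in Treg and at 0, 0.421 and 0.938 TPM in HFSC. Its receptor Egfr was at 55.6, 76.2 and 76.3 TPM in HFSC and 0.696, 0.902 and 2.67 TPM in Treg. Every Treg library was above 500 TPM for the ligand and every HFSC library above 50 TPM for the receptor. Hbegf and Tgfa, other ligands of the same receptor, did not reach 5 TPM in Treg, with means of 1.97 ± 0.183 and 0.458 ± 0.196 TPM.

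The TNF family gave 3 of the 6 pairs. Tnf, a proinflammatory cytokine, was at 90.2, 64.9 and 81.8 TPM in Treg and 0.834, 0.617 and 0.275 TPM in HFSC. Its receptor Tnfrsf1a was at 223, 237 and 233 TPM in HFSC and 19.7, 15.6 and 20.6 TPM in Treg, 12.4-fold apart. The receptor was thus present in both, and Tnfrsf1b, the second TNF receptor, was Treg-side. Ltb was at 347, 313 and 342 TPM in Treg and 0, 0 and 0.416 TPM in HFSC. Its partner Lta was lower and less divided, at 22.1, 15.4 and 14.8 and 5.49, 0.369 and 0 TPM. Tnfsf14, which encodes LIGHT, was at 13.6, 14.2 and 11.6 TPM in Treg and 0 in all HFSC libraries, at least 29.7-fold higher. Their receptor Ltbr, known from lymphoid organ stroma and epithelium, was at 46.2, 40.9 and 39.4 TPM in HFSC and 3.97, 0.858 and 4.53 TPM in Treg. After the median shift between cell types was taken out, Tnfrsf1a and Ltbr were under 10-fold, so these 3 pairs were no longer strict. Without Treg GR WT replicate 2, the library with the lowest Ltbr, the 2 Ltbr pairs were not strict either.

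Sema4d, a membrane semaphorin of lymphocytes, was at 51.2, 85.1 and 85.7 TPM in Treg and 1.54, 3.64 and 3.76 TPM in HFSC. Its receptor Plxnb2 was at 70.0, 74.0 and 85.4 TPM in HFSC and 1.70, 1.43 and 3.88 TPM in Treg. The last pair rests on 2 libraries. Rspo3, which boosts Wnt signals through Lgr receptors, was at 7.15, 1.07 and 9.58 TPM in Treg, 0 in all HFSC libraries and between 0.191 and 1.62 TPM in Treg GR KO. Lgr4 was at 102, 138 and 141 TPM in HFSC and 0.957, 0.556 and 2.44 TPM in Treg. Without Treg GR WT replicate 3, the mean of Rspo3 was under 5 TPM and the pair was not strict. The 10 fibroblast genes summed to 218, 139.7 and 319.7 TPM in Treg GR WT replicates 1, 2 and 3, lowest in the same library as Rspo3. Rspo1 was at 6.03, 1.53 and 10.9 TPM, in the same order. Replicate 2 was also lowest for the macrophage, neutrophil and basal keratinocyte sums. Whether these transcripts came from fibroblasts was not tested.

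From HFSC to Treg, Cdh1, the cadherin of epithelial junctions, was at 252, 237 and 236 TPM in HFSC and 0.936, 0.837 and 1.70 TPM in Treg. Its integrin receptor is made of Itgae, at 372, 441 and 415 TPM in Treg and 0, 0.134 and 0.238 TPM in HFSC, and Itgb7, at 182, 235 and 234 and 0, 0.574 and 0.171 TPM. This integrin, CD103, is known to hold lymphocytes at epithelia. Klrg1, an inhibitory receptor for the same cadherin, was at 427, 424 and 399.8 TPM in Treg and 0 in every HFSC library, at least 687-fold higher. All 4 genes were one-sided by the rule above, which itself requires no overlap between libraries.

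Nectin2, a junction protein and checkpoint ligand, was at 24.7, 26.3 and 23.9 TPM in HFSC and 1.11, 1.28 and 0.871 TPM in Treg. Its receptor Tigit was at 451, 587 and 436 TPM in Treg and 0, 1.06 and 0 TPM in HFSC. The other TIGIT ligand of the list, Pvr, was higher in Treg, at a mean of 27.0 ± 3.25 TPM against 8.75 ± 2.44 TPM in HFSC. Il33, an alarmin released by damaged epithelium, was at 8.98, 21.3 and 16.4 TPM in HFSC and 0.164, 0 and 0.686 TPM in Treg. Its receptor chain Il1rl1, or ST2, was at 227, 327 and 270.4 TPM in Treg and 0, 0.0960 and 0 TPM in HFSC. The ligand was low and uneven between HFSC libraries, while the receptor was high in each Treg library. The second chain, Il1rap, was shared, at 7.55, 7.96 and 12.7 and 9.41, 7.52 and 8.98 TPM. Sema3e, a secreted guidance factor, was at 35.2, 33.2 and 31.5 TPM in HFSC and 0.644, 0.372 and 0.900 TPM in Treg, and its receptor Plxnd1 was at 10.2, 18.3 and 19.96 TPM in Treg and 0, 1.37 and 1.29 TPM in HFSC.

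**Figure D4:**
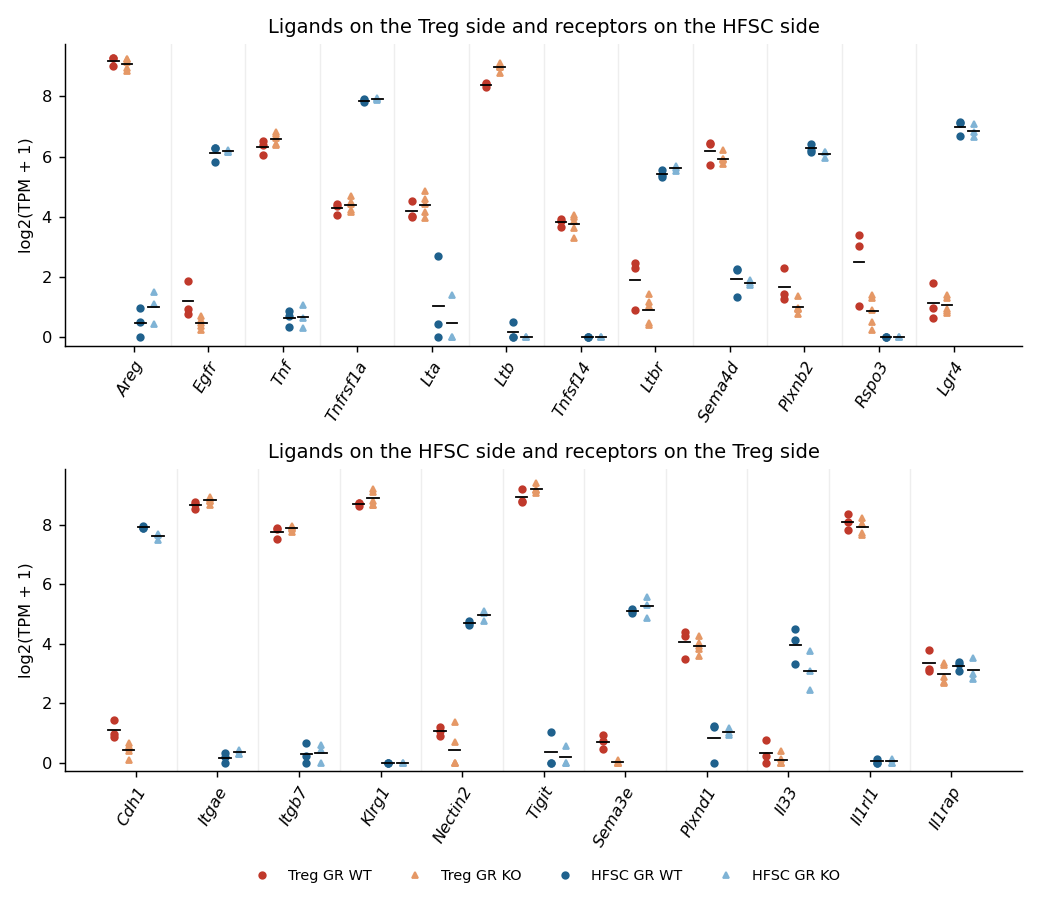
Each library's log2(TPM + 1) for the genes of the 11 strictly split pairs, with circles for GR WT (3 Treg, 3 HFSC), triangles for GR KO (5 Treg, 3 HFSC) and a black bar at each group's mean. The pairs were chosen for a ligand and a receptor chain at least 10-fold apart in opposite directions. Lta and Il1rap are closer, and Rspo3 is spread between its Treg GR WT libraries.

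Pairs expressed on both sides without the strict split fell into a few families. TGF-beta ligands were divided, with Tgfb3 at a mean of 68.8 ± 14.0 TPM against 2.17 ± 0.788 TPM in Treg, while Tgfb1 was at 108 ± 21.5 TPM in Treg and 34.0 ± 6.70 TPM in HFSC. The receptors Tgfbr1 and Tgfbr2 were expressed in both, at 56.3 ± 7.81 and 48.0 ± 9.59 TPM in Treg and 10.9 ± 0.194 and 35.6 ± 6.47 TPM in HFSC. The integrins that release latent TGF-beta were divided: Itgb6 was at 30.1, 35.0 and 31.8 TPM in HFSC and 0, 0.0530 and 0 TPM in Treg, whereas Itgb8 was at 36.0, 59.0 and 44.7 TPM in Treg and 7.92, 18.4 and 18.9 TPM in HFSC. Notch ligands Jag1, Jag2 and Dll1 were expressed in HFSC and Notch1 in both, at 32.6 ± 9.51 TPM in Treg and 60.4 ± 9.09 TPM in HFSC. Jag1 was also in Treg at 21.6 ± 4.38 TPM.

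Chemokine pairs were expressed from HFSC to Treg. Cxcl12, which retains CXCR4-bearing cells, was at 30.1, 26.9 and 33.0 TPM in HFSC and 2.57, 1.5 and 6.21 TPM in Treg, with Cxcr4 at 734, 774 and 673 TPM in Treg. Cxcl16 was at 28, 19.5 and 22.3 TPM in HFSC and its receptor Cxcr6 at 201, 156 and 181 TPM in Treg. Ccl27a, a skin-homing chemokine of keratinocytes, was at 54.9, 26.0 and 19.3 TPM in HFSC and its receptor Ccr10 at 26.7, 22.4 and 31.1 TPM in Treg. All 3 receptors were Treg-side, and all 3 ligands missed the 10-fold rule, with 1.5 to 9.14 TPM in the Treg libraries. With the GR KO libraries in place of GR WT, these 3 pairs were strictly split and the count from HFSC to Treg was 8. The basal keratinocyte, fibroblast and macrophage lists all had lower median sums in those Treg libraries than in Treg GR WT, and their part was not tested.

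Survival and checkpoint pairs also ran this way. Il7, a survival factor for T cells, was at 6.03, 4.37 and 5.25 TPM in HFSC, and Il7r was at 540.1, 654 and 440.3 TPM in Treg. The Il7 mean of 5.21 TPM was just above the limit of 5 TPM, and in HFSC GR KO the mean was under it, at 4.75 TPM. Cd200 was at 44.8, 48.0 and 73.2 TPM in HFSC, and its inhibitory receptor Cd200r1 at 293, 309 and 227 TPM in Treg. Mif, a cytokine, had means of 373 ± 36.6 TPM in HFSC and 203 ± 25.5 TPM in Treg, with its receptor chain Cd74 at 343 ± 84.7 TPM in Treg. From Treg to HFSC, Ifng was at 41.8, 31.7 and 27.6 TPM and Il13 at 28.7, 29.6 and 28.8 TPM in Treg, with both at 0 in every HFSC library. The HFSC receptors were Ifngr1 at 15.3 ± 2.69 TPM and Ifngr2 at 17.1 ± 1.72 TPM, and Il4ra at 9.18 ± 1.66 TPM and Il13ra1 at 37.0 ± 1.13 TPM. Thus both T cell cytokines had receptor chains in HFSC, and Il4ra was higher in Treg itself, at 153 ± 25.6 TPM.

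Some pairs run through genes that are also known as products of other cells. Gas6, a ligand of Axl, was at 6.42, 2.42 and 44.7 TPM in Treg against 226, 219 and 215 TPM in HFSC, so its Treg mean rested on replicate 3. Spp1, a macrophage product, was at 55.4, 16.8 and 66.4 TPM in Treg, where macrophage genes summed to 353, 216 and 390.3 TPM in the same libraries. Il1b, whose receptor Il1r1 was at 4.07, 7.85 and 8.29 TPM in HFSC, was at 239.7, 155 and 316 TPM in Treg. Replicate 2 was lowest for Gas6, Spp1, Il1b and the macrophage sum alike. It was also lowest for the neutrophil, fibroblast and basal keratinocyte sums, though not for the melanocyte sum. The order was thus not particular to the macrophage list, and the part of each cell type was not tested.

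For 1273 gene symbols the tables name different transcripts, so they are outside the join by transcript, 639 of them at 5 TPM or more in 1 table. Joined by symbol, 31 pairs ran from Treg to HFSC and 41 from HFSC to Treg, with 8 and 5 strictly split. The 2 added strict pairs were Il17a with Il17ra and Il17rc, and Fgf7 with Fgfr2. Il17a, a cytokine of barrier immunity, was at 12.2, 4.15 and 12.5 TPM in Treg and 0 in every HFSC library, and Fgf7, a growth factor known from fibroblasts, was at 9.77, 1.86 and 11.9 TPM in Treg. Levels joined this way can differ through the transcript length used.

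Whether the pair genes also differ with the receptor deletion was tested within each table with limma on log2(TPM + 1), two-sided, with Benjamini-Hochberg adjustment at 0.05. In Treg cells 175 of 11579 genes passed (1.51%), 23 higher (0.199%) and 152 lower (1.31%) in GR KO. Of 387 genes in the pair list, 232 were tested in Treg and 16 passed (6.90%), 4 higher and 12 lower. The median log2 difference of the 232 was -0.21, beside -0.04 over all genes tested. The pair list was chosen with earlier results of these data known, and the part of that choice in its share was not tested. In HFSC 22 of 12493 genes passed (0.176%), 18 higher (0.144%) and 4 lower (0.032%), and leaving out any 1 of the 6 libraries left 0 to 5. None of the 197 pair genes tested there passed by limma, the one tool run, and 37 had an unadjusted p under 0.05, or 18.8% beside 16.6% of all genes tested. Nr3c1 itself had means of 41.6 ± 7.07 TPM in HFSC GR WT and 43.6 ± 6.89 TPM in HFSC GR KO (SD, n = 3 each).

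The chemokine receptors moved in both directions. Cxcr4 was at 269 to 355 TPM in the 5 GR KO libraries, below every GR WT library (log2 difference -1.24 ± 0.10 SE, limma adjusted p = 0.000924). Cxcr6 was at 285 to 370.3 TPM, above every GR WT library (0.92 ± 0.11 SE, limma adjusted p = 0.00291). Ccr10 and Ccr3 were higher too, from means of 26.7 and 71.2 TPM to 46.3 and 117 TPM (limma adjusted p = 0.0412 and 0.0362), each with no overlap. In HFSC their ligands Cxcl12, Cxcl16 and Ccl27a had limma adjusted p values of 0.611, 0.944 and 0.821.

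Cytokine receptors and adhesion genes were among those that fell. Il7r was at 242 to 276 TPM in GR KO, below all 3 GR WT libraries (-1.06 ± 0.12 SE, limma adjusted p = 0.00214). Il2ra, the high-affinity chain of the interleukin-2 receptor, was at 317 to 344 TPM (-0.55 ± 0.08 SE, limma adjusted p = 0.00575), a call lost with a replicate block (adjusted p = 0.116). Pdcd1, the checkpoint receptor PD-1, fell from 82.2 ± 14.2 to 42.0 ± 9.56 TPM (SD, n = 3 and 5, limma adjusted p = 0.0211). The integrin chain Itgav fell from 80.3 to 44.01 TPM and the Notch ligand Jag1 from 21.6 to 11.9 TPM (limma adjusted p = 0.0198 and 0.0453).

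Among secreted ligands Ltb was higher in GR KO, at 442 to 554 TPM (0.59 ± 0.09 SE, limma adjusted p = 0.009), and was the one gene among 14 Treg genes of the strictly split pairs that passed. Its call was lost with a replicate block as well (adjusted p = 0.0760). Areg did not pass, at a log2 difference of -0.09 ± 0.12 (SE, limma adjusted p = 0.782). Il1b fell to 26.1 to 65.2 TPM (-2.23 ± 0.29 SE, limma adjusted p = 0.00333; 0.0538 with a replicate block), Cxcl2 to 14.6 to 36.2 TPM (-2.21 ± 0.25 SE, limma adjusted p = 0.00214) and Thbs1 to 3.83 to 6.20 TPM (-2.13 ± 0.26 SE, limma adjusted p = 0.00242), with no overlap. These 3 are also made by macrophages and neutrophils, whose marker sums were 216 to 390.3 and 99.4 to 352 TPM in GR WT and 66.0 to 181 and 26.3 to 50.9 TPM in GR KO, and that part was not tested. Ccl3, Cd200 and Il13ra1 fell as well, with limma adjusted p values of 0.0348, 0.0388 and 0.0362. The part of macrophages and neutrophils in the fall of these genes was not tested either. The calls of Ccl3, Cd200, Il13ra1, Ccr3, Ccr10, Jag1, Pdcd1 and Itgav were each lost in 2 to 9 of the alternatives run, with adjusted p values up to 0.189.

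**Figure D5:**
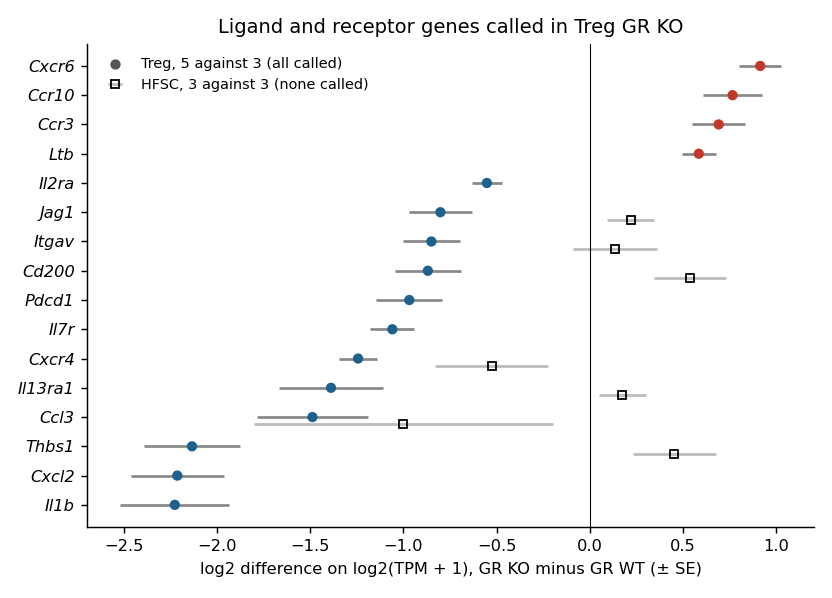
Difference between GR KO and GR WT on the log2(TPM + 1) scale, with its standard error, for the 16 ligand and receptor genes called in Treg cells (filled, 5 against 3 libraries), and for those also tested in HFSC (open squares, 3 against 3). The 4 Treg values to the right of 0 are Cxcr6, Ccr10, Ccr3 and Ltb, and no HFSC value was called.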

How the data were processed

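RNA from sorted cells was sequenced from stranded mRNA libraries, per the labels' protocols. The authors deposited 2 tables, 1 for each cell type, with TPM per transcript, and STAR, HOMER, Trim Galore, FastQC and the mm10 build are named in the submitters' processing notes. Tool versions and the use of strand in counting were not stated there. Each table held 24537 transcripts, and 23264 were joined by transcript.

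Means and SDs were taken over libraries, and classes and pairs were set by the rules given with the results. GR KO was compared with GR WT within a table with limma 3.58.1 (R 4.3.3) on log2(TPM + 1), for genes at a mean of at least 1 TPM, using a trended prior and adjusting by Benjamini-Hochberg. The script was tested on simulated data. Tags were recovered as whole numbers within 0.1 tag. Tables were handled with pandas 2.3.3 (Python 3.11.15).

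Genes named are the 4 markers, the highest-mean genes of each side and of each gene group, every strictly split pair and the highest of the other pairs, the highest members of each list, pair genes called by limma and the 2 genes on either side of 5 TPM. Other genes named were chosen after their values were seen. Members, gene lists and pairs were chosen with earlier results of these data known. Alternatives covered thresholds, scaling, pseudocount, filters, a replicate block and each left-out library.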

Additional observations from a re-analysis of the deposited data

Results flagged for a closer look

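In 3 genes of the strictly split pairs, the highest of the 5 Treg GR KO libraries stood far from the other 4. These were Il33 at 0.312 TPM, Plxnb2 at 1.60 TPM and Sema3e at 0.05 TPM, all HFSC-side genes near the floor in Treg cells. Chance alone sets apart a library in about 1 in 20 such groups.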

How the results depend on the processing

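None of the 16 called pair genes turned its direction under the alternatives run. Which direction had more strictly split pairs did turn: 6 from Treg against 5 from HFSC became 4 against 5 with median ratio scaling, 7 against 8 in the GR KO libraries, 9 against 11 at 5-fold, 3 against 4 at 20-fold and 5 against 6 without Treg GR WT replicate 3, so that balance is not a result. At a limit of 1 TPM, 54 pairs were expressed from Treg to HFSC and 61 from HFSC to Treg, and at 10 TPM 22 were from HFSC to Treg. HFSC-side genes were 2085 at 5-fold and 903 at 20-fold, and shared genes were 2784 within 1.5-fold. Leaving out each GR WT library in turn gave 774 to 831 Treg-side, 1327 to 1519 HFSC-side and 4155 to 4400 shared genes, 20 to 26 and 37 to 40 expressed pairs, and 5 to 7 and 5 to 6 strictly split pairs. Called genes in Treg GR KO ranged from 84 to 186 with a library left out, 107 without GR WT replicate 1 and 84 without GR WT replicate 3. In HFSC they ranged from 0 to 5 with a library left out, and were 2 with no filter, 48 at a filter of 5 TPM and 69 with median ratio scaling. With a replicate block the calls were 78 in Treg and 66 in HFSC. Deviations of same-numbered libraries correlated at 0.208, 0.0817 and -0.124 in Treg and at 0.0215, 0.0900 and -0.0821 in HFSC, so the numbers were not taken as pairs. Cxcr4, Cxcr6, Il7r, Cxcl2 and Thbs1 passed in every alternative, and Il1b, Il2ra and Ltb in all but the block. The calls of Itgav, Pdcd1, Ccl3, Ccr3, Ccr10, Cd200, Jag1 and Il13ra1 were lost in more. The cause was not tested. The lower HFSC depth limits what can be seen under about 0.515 TPM.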
